A study of Mus musculus with 4 samples.

Results

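Lipofibroblasts are interstitial fibroblasts of the developing lung that hold neutral lipid in cytoplasmic droplets. They take up triglyceride from the blood, coat it with the droplet protein encoded by *Plin2* and release it to neighbouring alveolar type 2 (AT2) cells, which use the lipid to make surfactant. The transcription factors encoded by *Tcf21* and *Pparg* mark and maintain this fibroblast state. The same storage and release machinery works in adipocytes, capillary endothelium, macrophages and heart muscle, so none of its genes is confined to lipofibroblasts.

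A group of 9 lipofibroblast and lipid storage genes was followed in the fetal lung. They were chosen by gene symbol for their roles, with earlier results of these data known. *Tcf21* and *Pparg* stand for fibroblast identity, *Plin2* for the droplet coat, *Lpl*, *Cd36* and *Fabp4* for uptake and transport of fatty acids, and *Pnpla2*, *G0s2* and *Lipa* for release of stored lipid. All 9 were among the 45706 genes of the count table, and all 9 passed the minimum of a mean of 5 counts, which 18763 genes passed in all. The lungs were left lobes from C57BL/6 mice at embryonic day 17 (E17), without treatment. There were 2 *Myh10*+/+ lungs and 2 lungs homozygous for the L458R change (*Myh10*L458R/L458R in the labels, *Myh10*-/- from here on). *Myh10* encodes a heavy chain of non-muscle myosin II, and L458R is a missense change from a chemical mutagenesis screen that is carried by every cell of the animal, so a difference cannot be assigned to a cell type. Each library held RNA of a whole lobe, and fewer cells of a type and less RNA per cell cannot be told apart. The comparison of the genotypes asked whether the lipid storage genes differed in the late fetal lung.

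The lungs had between 19116971 and 32055306 counts on genes. *Myh10* itself, in which a missense change need not alter the count, stood at 505 and 504 CPM (counts scaled to the size of the library) in *Myh10*+/+ and at 539 and 513 CPM in *Myh10*-/- lungs, so it does not check the labels. Each genotype held 1 lung with *Xist* at 3916 CPM or more and 1 lung with *Ddx3y* at 182 CPM or more, and the number of a lung did not go with either. Lung identity was plain from *Nkx2-1*, a lung epithelial regulator, at 434 to 455 CPM in the 4 lungs. Across the 18763 tested genes, 308 (1.64%) differed, of which 252 (1.34% of tested genes) were lower and 56 (0.298%) higher in *Myh10*-/- lungs at an adjusted p-value under 0.05 (edgeR quasi-likelihood test, Benjamini-Hochberg adjustment over all tested genes). The values of the 2 genotypes did not overlap, with *Myh10*-/- lower, in 24.3% of tested genes.

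The 9 genes covered a wide range of levels in the E17 lung. Per kilobase of the longest protein-coding transcript, the order in *Myh10*+/+ lungs ran from *Tcf21* (mean 189.7 CPM per kb) over *G0s2* (129.9), *Cd36* (69.1), *Plin2* (56.7), *Lipa* (33.1), *Pnpla2* (12.6), *Lpl* (11.9) and *Fabp4* (6.16) to *Pparg* (3.68). *Pnpla2* and *Lpl* were close neighbours in this order, at 12.3 and 12.9 CPM per kb against 12.2 and 11.7 in *Myh10*+/+ lungs, and in *Myh10*-/- lungs they overlapped, at 10.1 and 10.1 against 8.74 and 10.7. In *Myh10*-/- lungs *Cd36* (57.5 and 62.8 CPM per kb) and *Plin2* (48.3 and 58.1) overlapped as well. The last places depended on the length used, since over all annotated exons *Fabp4* came below *Pparg*. *Tcf21* stood far above *Pparg* in each lung, although both are used as marks of the same cell. No exon of the 9 genes overlapped another gene, and at most 1.72% of the 75-base windows of a transcript (those of *Lpl*) also occurred in another gene.

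**Figure D1:**
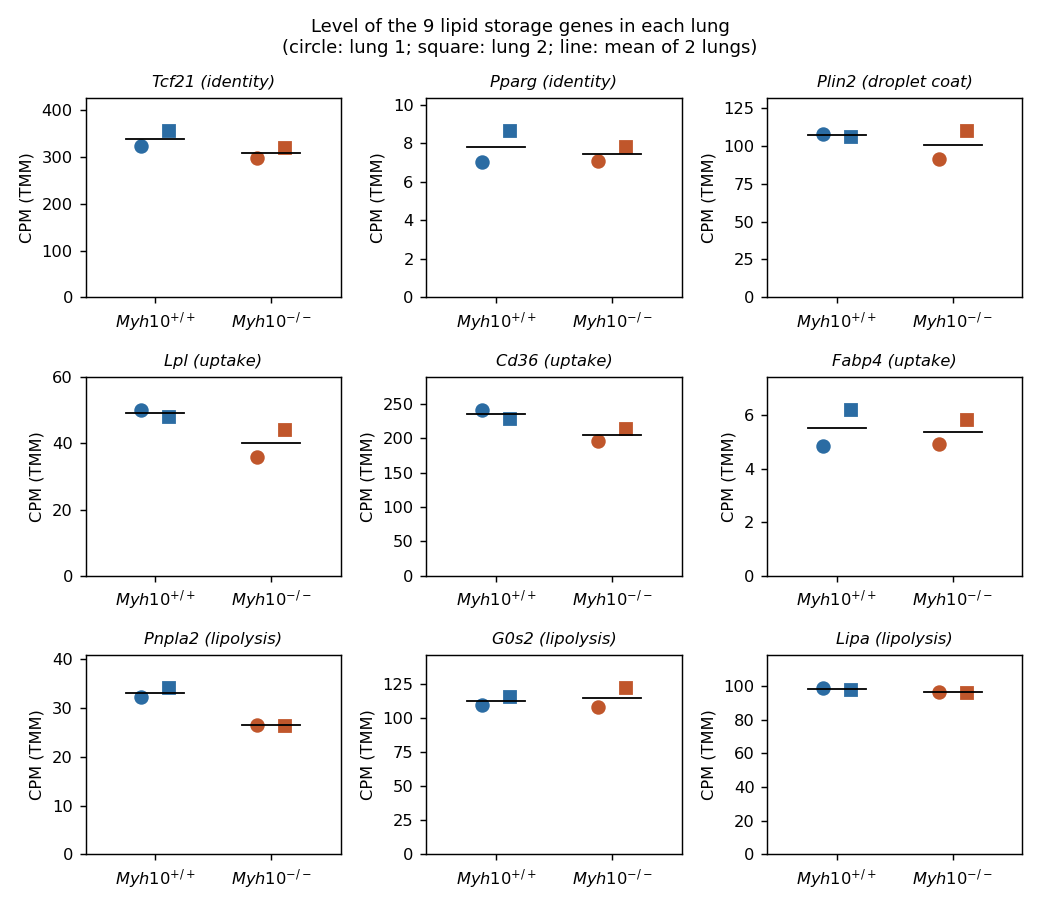
CPM of the 9 genes in each of the 4 lungs, scaled with TMM, 1 panel per gene with its own axis from 0, circles for lung 1, squares for lung 2 and lines for the mean of a genotype. The *Pnpla2* panel shows the *Myh10*-/- lungs at 26.5 and 26.4 CPM below both *Myh10*+/+ lungs at 32.3 and 34 CPM, while the *G0s2* panel shows the genotypes interleaved.

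The fibroblast identity genes did not pass the test. *Tcf21* (ENSMUSG00000045680, GRCm38 chr10:22817281-22820174, minus strand) encodes a basic helix-loop-helix factor of lung mesenchyme. Its level was 324 and 355 CPM in *Myh10*+/+ lungs and 298 and 319.7 CPM in *Myh10*-/- lungs. Both *Myh10*-/- values lay below both *Myh10*+/+ values, but the gap between the nearest lungs was smaller than the difference within either genotype. The log2 fold change was -0.14 (SE 0.06, 95% confidence interval -0.26 to -0.01), with an unadjusted p of 0.0375 and an adjusted p of 0.266 in the edgeR test. *Pparg* (ENSMUSG00000000440, chr6:115360951-115490399, plus strand) encodes the nuclear receptor that drives lipid storage programmes. It was at 7.03 and 8.61 CPM in *Myh10*+/+ lungs and at 7.05 and 7.8 CPM in *Myh10*-/- lungs, with the latter inside the range of the former. Its log2 fold change was -0.07 (SE 0.14, interval -0.36 to 0.23, edgeR adjusted p = 0.862). With only 161 to 251 *Pparg* counts per lung, changes of up to 0.36 downward and 0.23 upward on the log2 scale could not be told from no change.

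*Plin2* (ENSMUSG00000028494, chr4:86648386-86670060, minus strand), the coat protein of lipofibroblast droplets, was at 108 and 106 CPM in *Myh10*+/+ lungs. It was at 91.2 CPM in *Myh10*-/- lung 1 and at 109.6 CPM in *Myh10*-/- lung 2. The 2 *Myh10*-/- lungs lay on either side of the *Myh10*+/+ pair, so the genotypes overlapped. The log2 fold change was -0.09 (SE 0.08, interval -0.26 to 0.07, edgeR adjusted p = 0.588).

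Of the uptake genes, *Lpl* and *Cd36* had lower values in both *Myh10*-/- lungs without passing the adjusted threshold. *Lpl* (ENSMUSG00000015568, chr8:68880491-68907448, plus strand) encodes lipoprotein lipase, which frees fatty acids from circulating triglyceride. Its level was 50.1 and 48.1 CPM in *Myh10*+/+ lungs and 35.9 and 44.1 CPM in *Myh10*-/- lungs. The estimated *Myh10*-/- level was 81.6% of the *Myh10*+/+ level (log2 fold change -0.29, SE 0.09, interval -0.50 to -0.09), with an unadjusted p of 0.0093 and an adjusted p of 0.148 in the edgeR test. The 2 *Myh10*-/- lungs differed from each other by more than the gap to the nearest *Myh10*+/+ lung. *Cd36* (ENSMUSG00000002944, chr5:17781690-17888801, minus strand) encodes a fatty acid translocase and scavenger receptor of capillary endothelium, macrophages and fat-storing cells. It was at 241 and 228 CPM in *Myh10*+/+ lungs and at 196 and 213 CPM in *Myh10*-/- lungs. Again both *Myh10*-/- lungs were below both *Myh10*+/+ lungs. The estimated level was 87.1% of that in *Myh10*+/+ lungs (log2 fold change -0.20, SE 0.05, interval -0.32 to -0.08, edgeR unadjusted p = 0.00281, adjusted p = 0.087). *Fabp4* (ENSMUSG00000062515, chr3:10204088-10208576, minus strand) encodes the fatty acid binding protein of adipocytes, macrophages and microvascular endothelium. It was low, at 4.85 and 6.2 CPM in *Myh10*+/+ lungs and 4.92 and 5.84 CPM in *Myh10*-/- lungs, from 111 to 188 counts per lung. Both *Myh10*-/- values lay between the *Myh10*+/+ values, and the interval of the log2 fold change was wide, from -0.39 to 0.35 around -0.02.

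*Pnpla2* was the single gene of the 9 that passed the test. It encodes adipose triglyceride lipase, the enzyme that takes the first fatty acid from stored triglyceride, and is marked as ENSMUSG00000025509 at chr7:141455198-141460743 on the plus strand. Its level was 32.3 and 34 CPM in *Myh10*+/+ lungs and 26.5 and 26.4 CPM in *Myh10*-/- lungs. The means were 33.2 ± 1.15 and 26.4 ± 0.0311 CPM (SD, n = 2 each), so the genotypes were several CPM apart while replicates lay close together. The *Myh10*-/- level was 79.8% of the *Myh10*+/+ level, with a 95% confidence interval of 71.5% to 88.9%. The log2 fold change was -0.33 (SE 0.07, interval -0.48 to -0.17) and the adjusted p, 0.0469 in the edgeR test, was only just under the threshold. The call was lost with library totals as the scale (edgeR adjusted p = 0.0525), with the Wald test of DESeq2 (0.0799), without *Myh10*+/+ lung 2 (0.359) and without *Myh10*-/- lung 1 (0.167). Over all 13 alternatives the adjusted p ranged from 0.0107 to 0.359 and the log2 fold change from -0.36 to -0.29.

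The other release genes among the 9 showed no call. *G0s2* (ENSMUSG00000009633, chr1:193272161-193273217, minus strand) encodes an inhibitor that binds this lipase. It was at 110.1 and 116 CPM in *Myh10*+/+ lungs and at 108 and 122 CPM in *Myh10*-/- lungs, which lay outside the *Myh10*+/+ pair on both sides. Its log2 fold change of 0.02 (SE 0.06, interval -0.12 to 0.16, edgeR adjusted p = 0.916) was the only one of the 9 above 0. *Lipa* (ENSMUSG00000024781, chr19:34492318-34527474, minus strand) encodes lysosomal acid lipase, which acts on cholesteryl esters and triglyceride delivered to lysosomes. It was at 98.7 and 97.6 CPM in *Myh10*+/+ lungs and at 96.8 and 95.9 CPM in *Myh10*-/- lungs. Although the genotypes did not overlap, they differed by little, with a log2 fold change of -0.03 (SE 0.06, interval -0.15 to 0.09, edgeR adjusted p = 0.854).

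Levels of lipase and inhibitor were set against each other within each lung. The ratio of *G0s2* to *Pnpla2* in CPM per kb was 10.3 in each *Myh10*+/+ lung and reached 12.3 and 13.9 in *Myh10*-/- (10.3 ± 0.0327 against 13.1 ± 1.13, SD, n = 2 each). Both *Myh10*-/- lungs were above the *Myh10*+/+ pair, which the values of the 2 genes given above already fix. The ratio of *Abhd5*, which encodes the activator of this lipase, to *Pnpla2* was 1.07 and 0.911 in *Myh10*+/+ lungs and 0.933 and 1.1 in *Myh10*-/- lungs, and the genotypes overlapped. *Abhd5* itself was at 41.8 and 37.2 CPM in *Myh10*+/+ lungs and at 29.7 and 34.8 CPM in *Myh10*-/- lungs. Its log2 fold change was -0.29 (edgeR unadjusted p = 0.00846, adjusted p = 0.143). *Abhd5* counts are uncertain, because 28.4% of its transcript windows were shared with an antisense gene. The ratio of *Plin2* to *Pnpla2* was 4.64 and 4.35 in *Myh10*+/+ lungs and 4.79 and 5.77 in *Myh10*-/- lungs. These ratios, and *Abhd5* among them, were chosen after the values had been seen and were not tested. With 2 lungs against 2, the smallest two-sided p an exact permutation test can give is 0.333.

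**Figure D2:**
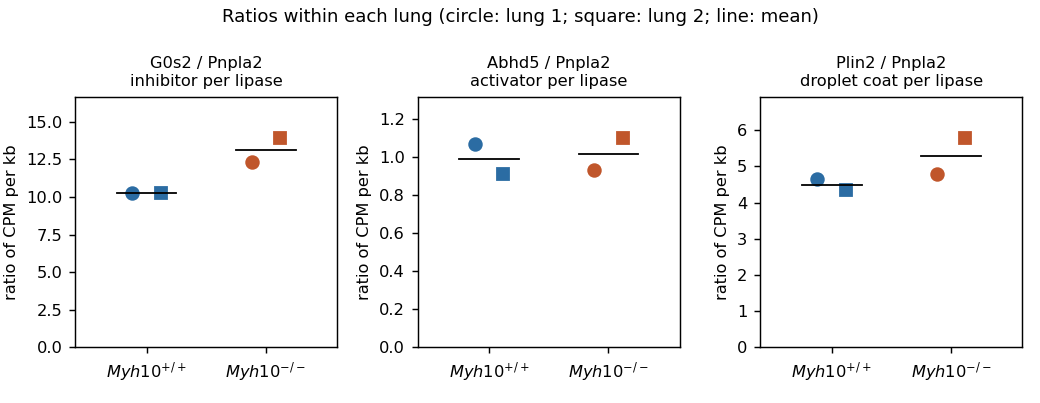
Ratios of CPM per kb of *G0s2*, *Abhd5* and *Plin2* to *Pnpla2* within each lung, 1 panel per ratio with the axis from 0, circles for lung 1, squares for lung 2 and lines for the mean. *G0s2* over *Pnpla2* sits at 10.3 in *Myh10*+/+ and at 12.3 and 13.9 in *Myh10*-/-, whereas *Abhd5* over *Pnpla2* overlaps.

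Promoter sequence from RefSeq (GRCm38.p6) was found for 7 of the 9 genes, all but *Lpl* and *Fabp4*, and the 250 bases before each start were searched on both strands. The direct repeat DR1, the type of element bound by PPARG with its partner RXR, was matched with up to 2 mismatches before the RefSeq starts of *Plin2* and *Cd36*. A match of this kind occurred in 3.24% of 32851 promoter windows of the same length. The stretch before *Pnpla2*, the gene that passed the test, held no such match and 2 copies of the GC box GGGCGG, which was present in 32.7% of windows. The stretches are shown because they set both genes with the repeat, whose counts did not pass the test, beside the called gene. The GC box does not set *Pnpla2* apart, since it also occurred before *Pparg*, *G0s2* and *Cd36*. Its copies in *Cd36*, 109 to 104 and 93 to 88 bases before the RefSeq start, are left in lower case. Capitals mark the repeat in *Plin2* (chr4:86670200-86670299, minus strand) and *Cd36* (chr5:17835897-17836016, minus strand) and the GC boxes in *Pnpla2* (chr7:141455048-141455187, plus strand).
Plin2: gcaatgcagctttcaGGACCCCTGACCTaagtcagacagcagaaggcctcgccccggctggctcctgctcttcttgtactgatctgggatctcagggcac
Cd36: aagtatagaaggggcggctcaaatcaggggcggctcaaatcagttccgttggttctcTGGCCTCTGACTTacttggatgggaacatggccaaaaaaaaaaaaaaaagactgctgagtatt
Pnpla2: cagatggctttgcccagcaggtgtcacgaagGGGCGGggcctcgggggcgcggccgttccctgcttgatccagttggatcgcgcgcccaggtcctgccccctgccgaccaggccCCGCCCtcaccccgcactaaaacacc
In *Cd36* the repeat lies 63 to 51 bases before the RefSeq start and in *Plin2* 225 to 213 bases before it. Both are read on the strand opposite to the gene. The RefSeq start used for *Cd36* lies inside the gene coordinates given above, so its stretch is not the sequence before the whole gene. A match in letters is a description of the sequence, and binding was not measured.

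Counted as a group, 1 of the 9 genes was lower and 0 were higher at the adjusted threshold, against 1.34% and 0.298% of all tested genes. At an unadjusted p under 0.05 in the edgeR test 4 were lower (*Pnpla2*, *Cd36*, *Lpl* and *Tcf21*) and 0 higher, against 9.02% and 7.52% of tested genes, while the Wald test of DESeq2 called 0 of the 7 for which it gave an adjusted p (none for *Pparg* and *Fabp4*) and had 3 lower and 0 higher at an unadjusted p under 0.05. In 5 of the 9 genes both *Myh10*-/- lungs lay below both *Myh10*+/+ lungs, against 24.3% of all tested genes, and in 0 genes above, against 23.9%. The fold change was below 0 in 8 of 9, against 49.5% of all tested genes. The median log2 fold change of the 9 was -0.09, beside 0.00 over all tested genes. Their summed level was 976 and 999.7 CPM in *Myh10*+/+ lungs and 863 and 944 CPM in *Myh10*-/- lungs. Within the *Myh10*-/- genotype, 7 of the 9 genes were lower in lung 1 than in lung 2 (77.8%, against 50.3% of all tested genes).

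**Figure D3:**
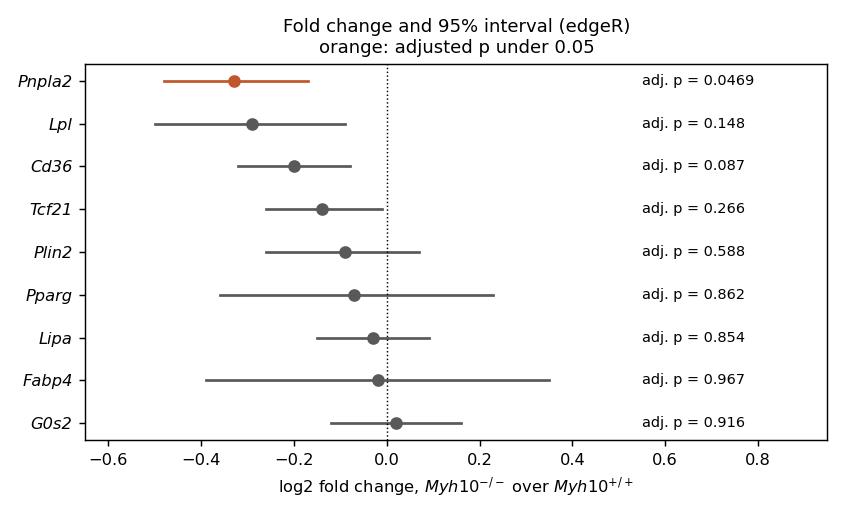
Log2 fold change of *Myh10*-/- over *Myh10*+/+ lungs for the 9 genes, with the adjusted p beside each and bars for the 95% confidence interval of the edgeR fit on 2 lungs per genotype. The interval of *Pnpla2*, the gene past the adjusted threshold, runs from -0.48 to -0.17, and those of *Pparg*, *Plin2*, *Fabp4*, *G0s2* and *Lipa* cover 0.

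Genes with related functions were read from 8 lists, which were chosen with earlier results of these data known. The lists together hold 160 genes, the 9 genes included, of which 151 were tested. In these lists 5 genes were lower at the adjusted threshold (3.31%, against 1.34% of all tested genes) and 0 higher (against 0.298%). At an unadjusted p under 0.05 in the edgeR test there were 40 lower (26.5%, against 9.02%) and 0 higher (against 7.52%). The Wald test of DESeq2 called 9 genes of these lists, all lower. The fold change was below 0 in 113 of 151 genes (74.8%, against 49.5% of all tested genes), and the genotypes did not overlap with *Myh10*-/- lower in 70 (46.4%, against 24.3%). Without the 9 genes the shares were 73.9% and 45.8% of 142 tested genes. The genes of these lists are mostly well counted, and where the mean reached 250 counts the shares were 77.9% and 52.5% of 122 list genes against 52.3% and 28.9% of the 10979 tested genes at that depth, in which the opposite order without overlap, *Myh10*-/- higher, was seen in 24.2%.

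Release of stored lipid had 2 edgeR calls among 13 tested genes, *Pnpla2* and *Ces1d*. The Wald test of DESeq2 called 2 of the 11 for which it gave an adjusted p, both lower. *Ces1d* encodes a carboxylesterase that hydrolyses triglyceride and is also a marker of alveolar fibroblasts, the single edgeR call among 20 such markers. It was at 243 and 249 CPM in *Myh10*+/+ lungs and 193 and 205 CPM in *Myh10*-/- lungs (log2 fold change -0.31, SE 0.05, edgeR adjusted p = 0.0111). Its pattern over the 4 lungs was also among the nearest to that of *Pnpla2*, with a distance of 0.0681 in centred log2 CPM, after *Abcc9* (0.0598), a channel subunit of pericytes, among 216 list genes. Other genes of release did not pass the edgeR test, among them *Mgll*, encoding monoglyceride lipase, at 89.8 and 97 CPM in *Myh10*+/+ lungs against 73 and 79.8 CPM (log2 fold change -0.29, edgeR adjusted p = 0.0594, with an antisense gene over part of its exons). Among the 20 alveolar fibroblast markers 13 fold changes were below 0 and 7 above, with a median of -0.06. Both *Myh10*-/- lungs were lower in 7 (35%, against 24.3% of all tested genes) and higher in 3 (15%, against 23.9%). The Wald test of DESeq2 called 2 of the 16 for which it gave an adjusted p, both lower. Of the other alveolar fibroblast markers, those with the highest levels did not pass the edgeR test. *Scn7a*, a sodium channel, had a log2 fold change of -0.13 and *Limch1*, an actin regulator, one of -0.05. *Npnt*, which encodes the matrix protein nephronectin, was at 605 and 582 CPM against 487 and 537 CPM, with both *Myh10*-/- lungs lower (log2 fold change -0.21, edgeR unadjusted p = 0.00808, adjusted p = 0.14).

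Lysosomal lipid breakdown gave 1 call among 15 tested genes with edgeR and 3, all lower, with the Wald test of DESeq2. The gene called by edgeR was *Scarb2*, encoding a lysosomal membrane receptor, at 217 and 218 CPM in *Myh10*+/+ lungs and 185 and 192 CPM in *Myh10*-/- lungs (log2 fold change -0.21, SE 0.05, edgeR adjusted p = 0.0475, and 0.00465 to 0.275 over the alternatives). In this list 14 of 15 fold changes were below 0 (93.3%, against 49.5% of all tested genes), with a median of -0.15. In 10 genes the *Myh10*-/- lungs were both lower (66.7%, against 24.3%). *Npc2*, which encodes a cholesterol carrier of the lysosome lumen and is the most abundant of the list, was at 1077 and 1078 CPM against 772 and 899.8 CPM (log2 fold change -0.37, edgeR adjusted p = 0.0729). *Lipa* had one of the smallest differences in this list.

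Uptake of fatty acids and lipoproteins gave 1 edgeR call among 28 tested genes, *Fabp5*, encoding an intracellular fatty acid carrier. It was at 73.8 and 67.7 CPM in *Myh10*+/+ lungs and at 46.5 and 53.2 CPM in *Myh10*-/- lungs (log2 fold change -0.50, SE 0.08, edgeR adjusted p = 0.0141). Its counts are less certain because 12% of its transcript windows also occurred in pseudogenes. *Fabp5* passed the test and *Fabp4* did not, and the difference between the 2 was not tested. The fatty acid transporter *Slc27a6* had a log2 fold change of 0.10 (edgeR adjusted p = 0.452). In this list the Wald test of DESeq2 called 2 of the 18 genes for which it gave an adjusted p, both lower. Among 25 tested partners of PPARG and adipogenic regulators there was 1 call by edgeR, and the Wald test of DESeq2 also called 1 lower. The edgeR call was *Srebf1*, encoding a regulator of fatty acid synthesis. It was at 128 and 130.3 CPM in *Myh10*+/+ lungs against 99.6 and 110.3 CPM in *Myh10*-/- lungs (log2 fold change -0.30, SE 0.06, edgeR adjusted p = 0.0293). Its exons overlap *Rai1* on the opposite strand and *Mir6922* in part.

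In 3 lists edgeR called 0 genes. Droplet coat and formation had 14 tested genes, of which 3 were lower and 0 higher at an unadjusted p under 0.05, with *Plin3*, another droplet coat gene, at 107 and 111 against 95 and 103 CPM (log2 fold change -0.15, edgeR adjusted p = 0.239). Triglyceride and phosphatidate synthesis had 16 tested genes, of which 5 were lower and 0 higher at an unadjusted p under 0.05. Its gene nearest to the threshold was *Soat1*, encoding a cholesterol acyltransferase, at 141 and 146 against 122 and 125 CPM (log2 fold change -0.22, edgeR adjusted p = 0.0522). Fatty acid oxidation had 25 tested genes, of which 5 were lower and 0 higher at an unadjusted p under 0.05, with *Hadha*, a subunit of the mitochondrial trifunctional enzyme, at 204 and 208 against 189.6 and 188 CPM (log2 fold change -0.13, edgeR adjusted p = 0.185). The Wald test of DESeq2 also called 0 genes, of 10, 13 and 22 in these lists for which it gave an adjusted p, with 1, 4 and 4 lower and 0 higher at an unadjusted p under 0.05. Their medians were -0.06, -0.11 and -0.11. By edgeR at an unadjusted p under 0.05, 21.4%, 31.2% and 20% were lower (against 9.02% of all tested genes) and 0 higher (against 7.52%). Both *Myh10*-/- lungs were lower in 5, 10 and 12 genes (35.7%, 62.5% and 48%, against 24.3%). They were higher in 3, 2 and 0 (against 23.9%). Fold changes were below 0 in 10, 13 and 21 genes (71.4%, 81.2% and 84%, against 49.5%).

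**Figure D4:**
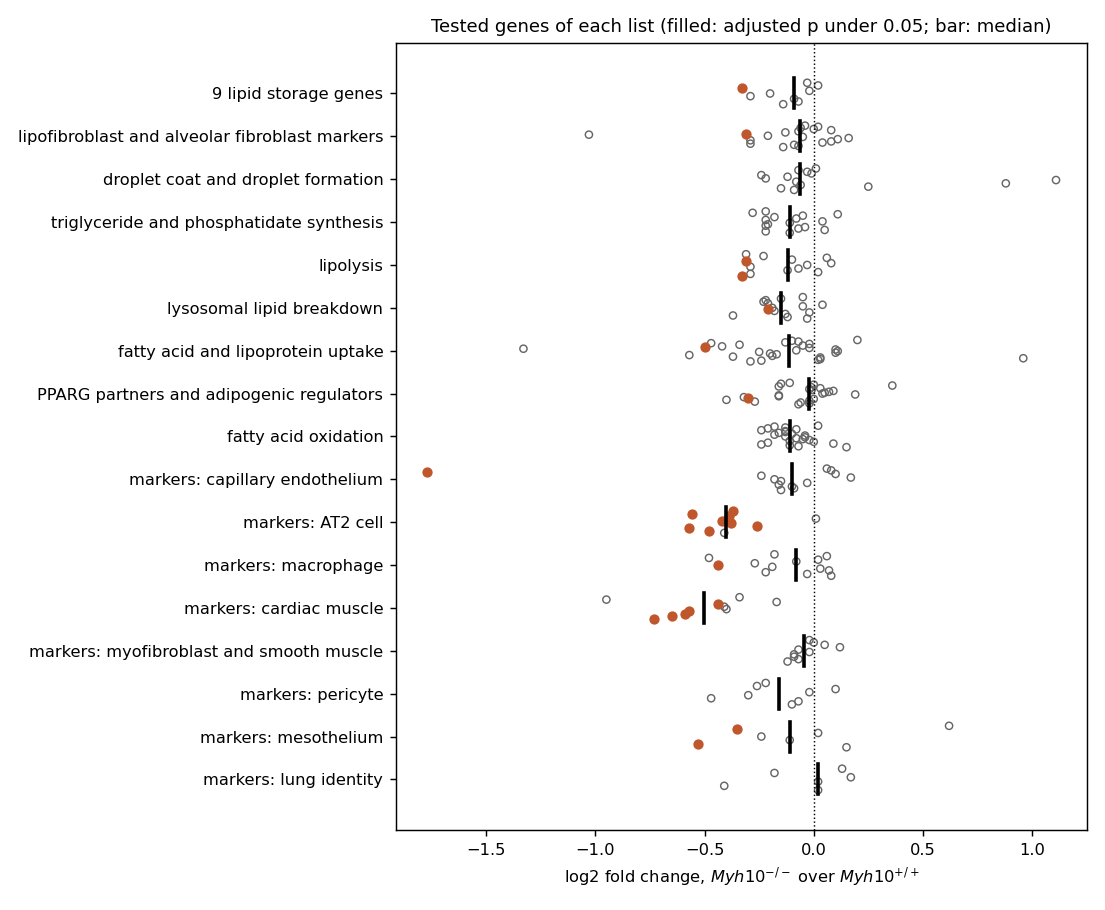
Log2 fold change of *Myh10*-/- over *Myh10*+/+ lungs for each tested gene (points) of the 9 genes, of the 8 lipid and fibroblast lists and of the marker lists, filled where the adjusted p is under 0.05, with a bar for each median. Medians of the lipid lists lie between -0.15 and -0.02, above those of the AT2 cell (-0.40) and cardiac muscle (-0.51) markers.

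Markers of other cell types that express these genes were also read, and those of AT2 cells and cardiac muscle held the most edgeR calls. AT2 cells also make and break down lipid. Of 10 AT2 markers 8 were called lower by edgeR (80%, against 1.34% of all tested genes), with a median log2 fold change of -0.40. Their summed level was 9733 and 9243 CPM in *Myh10*+/+ lungs and 6549 and 7692 CPM in *Myh10*-/- lungs, including *Sftpb*, a surfactant protein, at 820.1 and 797 against 573 and 588 CPM. Cardiac muscle, which uses *Pnpla2*, *Lpl* and *Cd36*, was represented by 13 markers. They summed to 293 and 353 CPM in *Myh10*+/+ lungs and 239 and 218 CPM in *Myh10*-/- lungs. Of the 10 tested, 5 were called lower by edgeR (50%, against 1.34%). Macrophage markers summed to 357 and 337 against 272 and 311 CPM, with 1 of 13 lower, the lysozyme gene *Lyz2*. *Lyz2* alone was at 186 and 173 against 117 and 148 CPM and made up most of the difference in the sum, while 5 of the 13 fold changes were above 0, such as 0.07 for *Mrc1*, a mannose receptor. Capillary markers summed to 2779 and 2769 against 2708 and 2669 CPM, with 1 of 13 lower, *Car4*, encoding a carbonic anhydrase (log2 fold change -1.77, edgeR adjusted p = 0.00961), a gene at no more than 2.99 CPM in any lung. Of the capillary markers 9 had fold changes below 0 and 4 above, with a median log2 fold change of -0.10. At an unadjusted p under 0.05 in the edgeR test 6 were lower and 1 higher, against 9.02% and 7.52% of all tested genes. Both *Myh10*-/- lungs were lower in 6 (46.2%, against 24.3%) and higher in 3 (23.1%, against 23.9%). Among those higher was *Ednrb*, an endothelin receptor (log2 fold change 0.08, edgeR adjusted p = 0.503). Of 7 mesothelial markers 2 were lower, *Msln* and *Krt19*, and 3 had fold changes above 0, of which 2 did not overlap. The Wald test of DESeq2 called 0 of the 8 macrophage and 0 of the 12 capillary markers for which it gave an adjusted p (it gave none for *Car4*), and 1 of 5 mesothelial markers. None of the 8 pericyte markers and none of the 10 smooth muscle markers were called by edgeR or by the Wald test. At an unadjusted p under 0.05 in the edgeR test 4 pericyte markers (50%) and 0 smooth muscle markers were lower, against 9.02% of all tested genes. In both lists 0 were higher, against 7.52%. Both *Myh10*-/- lungs were lower in 7 pericyte markers (87.5%) and 2 smooth muscle markers (20%), against 24.3% of all tested genes. They were higher in 0 and 1, against 23.9%. The medians of the 2 lists were -0.16 and -0.05. The part of AT2 cells, heart muscle, macrophages, capillaries, mesothelium and pericytes in the values of the 9 genes was not tested. Adipocyte markers, *Adipoq* and *Plin1* among them, were at most 0.21 CPM in any lung and summed to at most 0.559 CPM, and none passed the minimum count.

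The fold changes of 5 of the 9 genes kept their sign when the processing was altered, and the calls depended on it. For *Pnpla2*, *Cd36*, *Lpl*, *Tcf21* and *Lipa* the fold change was below 0 in each of 13 alternatives. In these genes both *Myh10*-/- lungs lay below both *Myh10*+/+ lungs, so leaving out a lung could hardly reverse the sign. *Cd36* passed the threshold with *Myh10*-/- lung 2 left out (log2 fold change -0.26, edgeR adjusted p = 0.00173) and in 2 other alternatives, with adjusted p from 0.00173 to 0.382 over all 13. *Lpl* passed without that lung as well (-0.45, edgeR adjusted p = 0.00131) and in 1 other alternative, with a range of 0.00131 to 0.521. *Plin2* passed only there, with a log2 fold change of -0.23 (edgeR adjusted p = 0.0493), against 0.04 (0.879) without *Myh10*-/- lung 1. *Pparg*, *Fabp4* and *G0s2* changed sign when single lungs were left out and passed in no alternative.

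**Figure D5:**
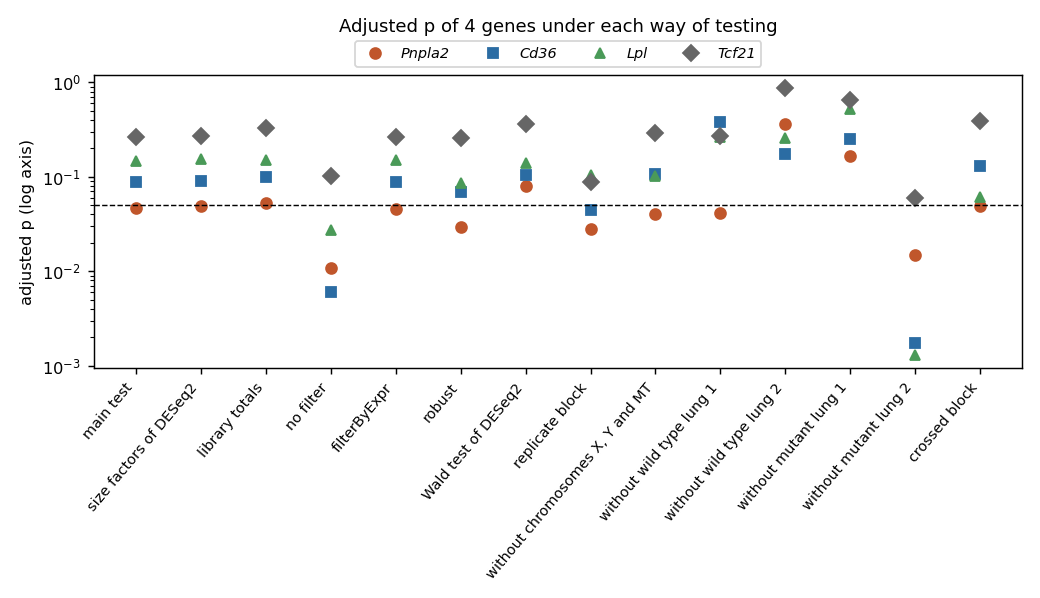
Adjusted p (log axis) of *Pnpla2*, *Cd36*, *Lpl* and *Tcf21* under the main test and the 13 alternatives, 1 column each, with a dashed line at 0.05. *Pnpla2* lies under the line in 9 of 13 alternatives, *Cd36* in 3 and *Lpl* in 2, and *Tcf21*, with a lowest value of 0.0589, in 0.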

How the data were processed

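RNA from 4 E17 left lung lobes was sequenced, and the authors deposited raw counts of reads per Ensembl gene for each lung, without normalization. Reads of 75 bases, from 1 end of each fragment and with strand kept in the library, had been trimmed, aligned to GRCm38 with STAR 2.4.0a and assigned to exons by featureCounts 1.5.1 (versions from the submitters' processing notes), and reads on several genes or regions were left out. Whether counting used strand is not given in the sources used here, so genes with an antisense neighbour are uncertain. The methods name separate mice, and lung numbers (1 and 2 per genotype) are those of the labels.

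The comparison of genotypes used edgeR 4.0.16 (R 4.3.3), with TMM factors and glmQLFTest after non-robust glmQLFit, on 18763 genes whose mean over the lungs reached 5 counts, with Benjamini-Hochberg adjustment and a threshold of 0.05. The CPM values were computed from the deposited counts with the TMM-scaled totals of the tested genes. Replicate lungs differed by more than counting error (chi-square per degree of freedom 7.47 and 12.6, chromosomes X and Y included), so the number of lungs limits the precision. *Xist*, with 89703 and 35 counts in *Myh10*+/+ lungs and 114 and 143443 in *Myh10*-/- lungs, adds a large part to both values. They were not computed without these chromosomes. Levels per kb used the longest protein-coding transcript of the GENCODE annotation on GRCm38. The 9 genes and the lists were chosen with earlier results of these data known. Besides the 9 genes, the text names list genes past the threshold (at most 6 per list), up to 4 of the most abundant other genes per list, the 2 list genes nearest to each called gene in centred log2 CPM, and *Myh10*, *Xist* and *Ddx3y* as checks. Alternatives were DESeq2 1.42.0 size factors, library totals, no filter, filterByExpr, robust fitting, the Wald test of DESeq2, a replicate block, leaving out chromosomes X, Y and MT, a threshold of 0.1 and leaving out each lung, with a crossed block added after the data had been seen.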

Additional observations from a re-analysis of the deposited data

How the results depend on the processing

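Over all tested genes, the 9 lipid storage genes and the 151 tested list genes, the calls were 308, 1 and 5 with the main processing. They were 1162, 3 and 23 (of 159 then tested) with no filter on low counts, 710, 2 and 19 with the replicate block, and 696, 2 and 12 at an adjusted p of 0.1. Robust fitting gave 474 and 10 over all genes and the list genes, library totals gave 0 and 3 among the 9 genes and the list genes, and the Wald test of DESeq2, which gave no adjusted p for *Pparg* and *Fabp4*, gave 0 and 9. The split of all calls was 252 lower and 56 higher with TMM and 234 lower and 112 higher with library totals. Leaving out each lung in turn, where the lone lung of a genotype is assumed to vary like the others, gave 206 to 1643 calls over all genes, 0 to 4 among the 9 genes, 2 to 34 among the list genes and 14 to 27 among the marker genes (17 with all lungs). Without *Myh10*-/- lung 2 the counts were highest (1643, 4, 34 and 27), and without *Myh10*+/+ lung 2 they were lowest (206, 0, 2 and 14). The calls in the 9 genes and the lists were lower in *Myh10*-/- lungs in each alternative, except 2 higher list genes without *Myh10*-/- lung 2. Among the 9 genes, sign changes were seen only when a lung was left out: log2 fold changes then ranged from -0.07 to 0.11 for *G0s2*, from -0.21 to 0.08 for *Pparg*, from -0.20 to 0.16 for *Fabp4* and from -0.23 to 0.04 for *Plin2*. *G0s2* turned negative without *Myh10*+/+ lung 1 or *Myh10*-/- lung 2, *Pparg* and *Fabp4* turned positive without *Myh10*+/+ lung 2 or *Myh10*-/- lung 1, and *Plin2* without the latter. The call of *Fabp5* held in each of the 13 alternatives other than the threshold of 0.1, whereas the call of *Ces1d* was lost without *Myh10*+/+ lung 2 (log2 fold change -0.29, edgeR adjusted p = 0.0524, range 5.86e-07 to 0.0524) and that of *Srebf1* without either *Myh10*+/+ lung (0.0856 and 0.0692, range 0.000236 to 0.0856). The deviations of same-numbered lungs correlated at -0.297 over all tested genes and 0.0114 without chromosomes X and Y. Over genes with at least 250 counts on average the correlation was -0.654, with chromosomes X and Y kept, and it was not computed without them at that depth. The numbers were not taken as pairs. With the crossed block, added after the data had been seen, there were 415, 1 and 7 calls. This block joined *Myh10*+/+ lung 1 with *Myh10*-/- lung 2, where *Xist* was high, and the remaining lungs, where *Ddx3y* was high. Leaving out a lung left its genotype with only a *Xist*-high or only a *Ddx3y*-high lung, so this difference was then partly mixed with genotype. The cause of the shifts in the number of calls was not tested.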
